A study of Mus musculus with 16 samples.

Results

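Open chromatin of the mature thymocytes was compared between the CD4 single positive stage (SP4) and the CD8 single positive stage (SP8), using the list of ATAC-seq peaks deposited for each. ATAC-seq cuts and tags accessible DNA with a transposase, and a peak is a stretch where the cuts pile up over the local background. The members were 3 sets: the 28461 of 115074 SP4 peaks that shared no base pair with any SP8 peak, called SP4-only here, the 18353 of 104411 SP8 peaks that shared none with any SP4 peak, called SP8-only, and the 89878 pairs of an SP4 and an SP8 peak sharing 1 bp or more. Together both lists held 219485 of the 476734 peaks of the series, whose other lists came from double negative (DN) and double positive (DP) thymocytes and were not used to assign members. All cells came from thymi of wild type C57BL/6J mice aged 9 weeks. SP4 cells were sorted as lineage-negative CD4+ CD8- CD3+ and SP8 cells as lineage-negative CD4- CD8+ CD3+, after exclusion of cells stained for lineage markers that included TER119, B220, Mac1, Gr1, CD11c, NK1.1 or the gamma delta T cell receptor. These gates do not separate regulatory T cells or NK1.1-negative invariant NKT cells from conventional SP cells. By the labels both stages came from the same 4 mice, with a library per mouse and stage, and the libraries of a stage were pooled by the authors before peaks were called, so each stage is 1 list, no value between stages has a replicate error, and no test was made. The 95% Wilson intervals given with shares cover counting error only.

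A DP thymocyte that passes positive selection keeps one coreceptor and shuts the other. Cells selected on MHC class II express ThPOK, the zinc finger repressor encoded by Zbtb7b, which holds off the CD8 programme, and its induction depends on GATA3 and TOX. Cells selected on MHC class I express RUNX3, which silences Cd4 and Zbtb7b and opens the Cd8 enhancers and genes of cytotoxic function. RUNX, ETS, GATA and TCF/LEF proteins bind DNA through short motifs, so the letters under a peak can be read beside its stage.

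The 10 sequences printed here were chosen because they lie at the coreceptor genes, at the lineage regulators and at effector genes of both lineages, where the members differed. Each is the 100 bp around the summit of the peak, read 5′ to 3′ on the + strand of mm10 (GRCm38), and capitals mark letters that match a motif on either strand.
Cd4 intron, 2887 bp inside, chr6:124885284-124885383: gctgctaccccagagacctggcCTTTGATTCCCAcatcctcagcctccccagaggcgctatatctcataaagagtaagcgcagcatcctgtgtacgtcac
Cd4 intron, 2161 bp inside, chr6:124886010-124886109: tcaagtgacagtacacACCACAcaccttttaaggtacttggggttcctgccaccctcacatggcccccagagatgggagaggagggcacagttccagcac
Zbtb7b intron, SP4-only, chr3:89382243-89382342: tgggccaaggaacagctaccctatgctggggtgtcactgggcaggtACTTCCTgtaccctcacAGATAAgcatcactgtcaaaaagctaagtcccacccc
Bcl6 upstream, SP4-only, chr16:24008182-24008281: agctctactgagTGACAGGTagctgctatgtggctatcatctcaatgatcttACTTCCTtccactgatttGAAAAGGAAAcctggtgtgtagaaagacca
Rora intron, SP4-only, chr9:68932707-68932806: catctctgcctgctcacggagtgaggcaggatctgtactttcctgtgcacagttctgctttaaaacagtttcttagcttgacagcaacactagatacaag
Rad50 intron upstream of Il4, SP4-only, chr11:53655258-53655357: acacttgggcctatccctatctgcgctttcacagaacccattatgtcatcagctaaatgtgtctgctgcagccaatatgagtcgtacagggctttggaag
Runx3 upstream, SP8-only, chr4:135114624-135114723: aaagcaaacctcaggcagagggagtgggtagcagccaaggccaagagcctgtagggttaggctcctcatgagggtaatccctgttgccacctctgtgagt
Eomes upstream, SP8-only, chr9:118374825-118374924: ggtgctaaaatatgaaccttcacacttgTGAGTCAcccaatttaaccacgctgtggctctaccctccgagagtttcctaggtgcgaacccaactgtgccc
Gzmb promoter, SP8-only, chr14:56262357-56262456: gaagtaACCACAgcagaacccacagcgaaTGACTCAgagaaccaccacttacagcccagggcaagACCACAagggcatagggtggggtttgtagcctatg
Fasl upstream, SP8-only, chr1:161799024-161799123: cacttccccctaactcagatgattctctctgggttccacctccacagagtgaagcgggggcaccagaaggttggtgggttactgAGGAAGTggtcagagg

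In these windows the Cd4 element 2887 bp inside the gene, which ranked somewhat higher at SP4, held a TCF/LEF motif (CTTTGA) directly followed by an IKZF motif (TGGGAA, on the other strand). The Cd4 element 2161 bp inside, which ranked higher at SP8, held a RUNX motif (TGTGGT, on the other strand), and so did the Gzmb promoter, which held 2 of them and an AP-1 motif (TGANTCA). The Eomes peak held an AP-1 motif and no other of the 26 motifs searched. The Zbtb7b and Bcl6 peaks each held an ETS motif (AGGAAGT), joined at Zbtb7b by the letters AGATAA of the motif for GATA3, and at Bcl6 by a PKNOX motif (TGACAGNT) and an IRF motif. The Fasl peak held an ETS motif, and the Rora, Il4 and Runx3 windows held none. Over all SP4 and all SP8 windows of this length, RUNX letters stood in 13.3% and 14.5%, ETS in 11.4% and 10.1%, TCF/LEF in 8.20% and 7.65%, IKZF in 5.63% and 5.59%, AP-1 in 3.99% and 4.09%, GATA in 3.55% and 3.05%, PKNOX in 2.48% and 2.29%, and IRF in 1.26% and 1.21%. A match is a description of letters and not a measured binding site.

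SP4-only peaks made up 24.7% of the SP4 list (24.5 to 25) and SP8-only peaks 17.6% of the SP8 list (17.3 to 17.8), and the SP4-only share was the higher on 19 of 19 autosomes, where it lay between 22.6% and 27.1%. This excess moved with the length of the lists. When the SP4 list was cut by q-value to as many peaks as the SP8 list has, the counts were 21427 (20.5%) and 21577 (20.7%), and the excess was no longer seen. SP4-only peaks covered 4492945 bp of the 35958648 bp in the SP4 list, and SP8-only peaks 2950407 bp of the 34484261 bp in the SP8 list. Read totals are not in the lists. At the edge of the rule, 279 SP4-only and 236 SP8-only peaks lay within 50 bp of a peak of the other list, with median percentiles of 14.8 and 13.9, while the 648 pairs with the least overlap, 1 to 50 bp, had medians of 19.2 at SP4 and 23.0 at SP8. Most members were far from this edge, since 19402 SP4-only peaks (68.2%) and 10294 SP8-only peaks (56.1%) had no peak of the other list within 1000 bp.

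Height is given as the percentile of a peak's fold enrichment within its own list, 0 being the lowest and 100 the highest, because the lists were called separately. It was used by the assignment of pairs and bears on whether a peak is called at all. SP4-only peaks were low and narrow, with a median percentile of 24, a median fold enrichment of 4.03 and a median width of 136 bp, against 60.9, 7.54 and 280 bp for the SP4 peaks that had an SP8 partner. SP8-only peaks had medians of 19, 3.71 and 137 bp, against 58.0, 7.42 and 275 bp for shared SP8 peaks. Few members were high: 3635 SP4-only and 1422 SP8-only peaks stood above the 50th percentile, 411 and 185 above the 75th, and 51 and 30 above the 90th. Up to the 10th percentile 46.9% of SP4 and 47.4% of SP8 peaks had no counterpart, and above the 90th 0.443% and 0.287%. The lists therefore differed mostly by weak peaks, and the strongest open regions were called at both stages.

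At the coreceptor genes single elements ranked in both directions, and the counts of pairs over each locus did not follow the stage labels. At Cd4 (chr6:124864692-124888221, - strand) a pair of neighbouring intronic peaks ranked in opposite order, and both are printed above. The element 2887 bp inside the gene stood at percentile 94.7 at SP4 and 74.1 at SP8, a difference under the limit of 25 points by which pairs are counted as higher at a stage, and was at 92.3 at DN and 88.8 at DP. The element 2161 bp inside stood at 21.8 at SP4 and 88.1 at SP8, with 71.4 at DN and 45 at DP, and is the one with the RUNX letters. Outside the gene, at -12338 bp from its start, a peak stood at 87.8 and 80.4. The peak over the Cd4 start itself was low in both lists, 16.5 and 5.60, so the call at the promoter did not separate the stages. By the 25-point limit, 0 pairs within 50 kb of Cd4 were higher at SP4 and 2 at SP8. The intron of Cd4 is known to carry the silencer that RUNX proteins bind in cytotoxic cells; its position is not marked in the lists.

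At Cd8a (chr6:71373427-71379173, + strand), the alpha chain of the coreceptor, elements also ranked in both directions. The peak over the start stood at 18.7 at SP4 and 70.7 at SP8. A peak at -3908 bp stood at 72.5 and 90.5, and one at -15721 bp at 17.2 and 81.3. All of these were higher at SP8, as was a peak 8459 bp past the start, at 56.2 and 75.4. Inside the gene, 3499 bp from its start, the order was the other way, with 75.3 at SP4 and 11.2 at SP8. It was so too at a group of upstream peaks, with 55.2 and 7.78 at -12983 bp, 74.4 and 56.3 at -12503 bp, and 53.4 and 5.82 at -12081 bp. By the 25-point limit, 4 pairs within 50 kb of Cd8a were higher at SP4 and 2 at SP8. The start of Cd8b1, the beta chain gene next to it, stood at 88.2 and 93.6. Within 50 kb the SP4-only and SP8-only peaks were 8 and 9 at Cd8a and 7 and 7 at Cd8b1. With lists of equal length they were 6 and 11 at Cd8a and 6 and 8 at Cd8b1. The number of exclusive peaks was thus near level in the full lists and higher at SP8 for both genes with equal lists.

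At Zbtb7b (chr3:89377644-89394776, - strand), which encodes ThPOK, 12 SP4-only and 3 SP8-only peaks lay within 50 kb, and the counts were again 12 and 3 with lists of equal length. Most were weak: 2 of the 12 SP4-only and 0 of the 3 SP8-only peaks stood above the 50th percentile. An SP4-only peak at percentile 56.4 covered an annotated transcript start 1028 bp inside the gene, with no peak there at SP8, DP or DN. Shared peaks that overlap promoters lay near it, each with DN and DP peaks. The one 603 bp inside stood at 5.22 at SP4 and 5.08 at SP8, and the one at -1196 bp at 13.4 and 30.1. A further SP4-only peak, printed above, stood at 58.1, 12483 bp inside. Not every Zbtb7b element was higher at SP4. A shared peak 5762 bp inside stood at 49.0 at SP4 and 73.9 at SP8, one 16230 bp inside at 36.1 and 68.7, and an SP8-only peak 14878 bp inside at 42.6. The strongest peak of the neighbourhood, at -17223 bp, was level between the stages, at 99.6 and 99.7.

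At Runx3 (chr4:135120652-135177990, + strand) the counts ran the opposite way, with 3 SP4-only and 21 SP8-only peaks within 50 kb, also 3 and 21 with lists of equal length. Nearly all of the exclusive SP8 peaks were weak: 1 of 21 stood above the 50th percentile, the intergenic peak at -5978 bp printed above, at 58.8. The strong peaks of Runx3 were shared, and several ranked higher at SP4. The peak at -195 bp stood at 95.6 at SP4 and 94.2 at SP8, and the one 8344 bp inside at 96.9 and 87.4. An intergenic peak 58717 bp from the start, past the end of the gene, stood at 97.5 and 67.7. Runx3 therefore had many small SP8 peaks around strong peaks called at both stages.

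**Figure D1:**
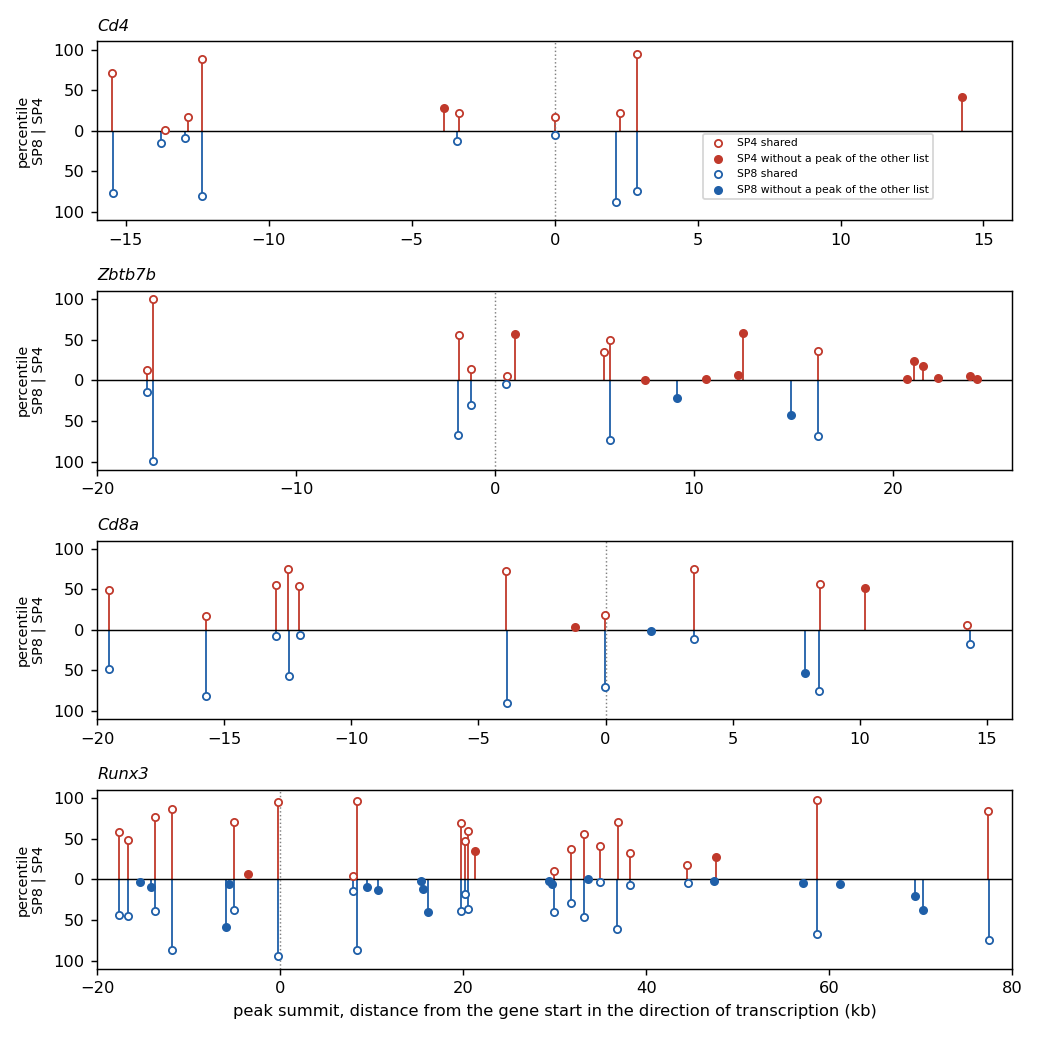
Peaks at Cd4, Zbtb7b, Cd8a and Runx3, with distance of the summit from the gene start in kb on the x axis, the SP4 percentile drawn upward in red and the SP8 percentile downward in blue; open symbols are peaks shared by the lists and filled symbols SP4-only or SP8-only peaks. The Cd4 intron holds one element at 94.7 and 74.1 and another at 21.8 and 88.1, and Runx3 has a row of low SP8-only peaks.

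The highest SP4-only peaks lay far from gene starts. The highest stood at percentile 98.9, 186565 bp from the nearest gene start, that of Clint1, which encodes a clathrin adaptor, and it had a DN peak at 58.6 and none at DP. The next were near Fgf6 (98.4), in an intron of Cdkal1 (97.8), in an intron of Lcmt1 (96.6), near Phlpp1 (96.3), in an intron of St6galnac3 (96.0), near Vrk1 (95.3) and near 4930432M17Rik (95.2). Rora, the nuclear receptor ROR alpha that acts in helper lineages, held the next one, an intronic peak at 95 with no peak at SP8, DP or DN, which is printed above, and Auts2 held the last of the 10, at 94.8. The highest SP8-only peaks were near Irf2 (98.6), an interferon-response regulator, near Ppp6c (97.9), 286627 bp from Myc (95.6), near Mc2r (95.1), and 103337 bp from Eomes (95.1), the T-box factor of CD8 memory and NK cells. The Eomes peak, printed above, had a DN peak at 93.0 and no DP peak. The other 5 were at Rad51b (94.9), Susd1 (94.3), Mad2l1 (94.2), Rnf13 (94.1) and Lrrc3b (94.1). A gene name here says only which gene holds the peak or starts nearest to it.

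Few exclusive peaks lay on the start of a protein coding gene: 280 SP4-only, of which 23 stood above the 50th percentile, and 315 SP8-only, of which 10 did. The highest SP8-only promoter peak was at Fam193a (91.0). It was followed by Gzmb (87.2), the protease granzyme B, and Nkg7 (81.4), a cytotoxic granule protein, and then by Dok7 (69.5), Plac8 (61.4), Gsg1 (53.8), Yjefn3 (52.5), Kirrel2 (52.3) and Ccl3 (51.0), an inflammatory chemokine. The Gzmb and Nkg7 starts had DN peaks at 76.2 and 62.9 and no DP peak. At SP4 the highest were Prg4 (68.0), Gpr31b (63.6), Zbtb20 (62.3), Ehf (62.3), Pde7b (62.0) and Il1r1 (60.6), followed by Naip2, Erc2, Epha3 and Zfp57, each at 58.3. The 4 highest SP8-only starts thus stood above the 4 highest SP4-only starts, and the order turned from there on.

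Of the pairs, 9431 (10.5%) ranked at least 25 percentile points higher at SP4 and 7188 (8%) at least 25 points higher at SP8, and 48024 (53.4%) were within 10 points. The order of these counts turned with lists of equal length, to 7499 (8.70%) and 8330 (9.66%). Summits of a pair lay a median of 15 bp apart, and 74.8% within 50 bp. The percentiles of a pair correlated with a Spearman rho of 0.73 over 89878 pairs, which share the genome sequence under the peak, and neighbouring pairs are not independent. Around the limit of 25 points, 2047 pairs differed by 24 to 26 points in either direction. The largest differences, 99.3 and -98.4 points, came from regions called as 1 peak at one stage and as several at the other, and 0 of the 10 largest in each direction were pairs in which neither peak had another partner. Of the 76390 pairs with a sole partner on both sides, 6740 (8.82%) ranked higher at SP4 and 4325 (5.66%) higher at SP8, and 1180 differed by 50 points or more.

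Among these sole-partner pairs, the largest differences toward SP4 were near Rbms3 (90.5 at SP4 and 5.12 at SP8), at Jam2 (90.5 and 7.91), near Rnf212b (89.9 and 7.91), near Traf3 (83.7 and 2.63), an adaptor of TNF receptors, and near Hes1 (91.5 and 11.3), a target of Notch. They also included a peak 27254 bp from the start of Il21, the cytokine of follicular helper cells, at 93.4 and 15, with a DN peak at 60.1 and none at DP. The largest difference toward SP8 was again at Eomes: a peak 120516 bp upstream of its start stood at 6.94 at SP4 and 95 at SP8, with a DN peak at 5.76 and no DP peak. It was followed by Ghr (10.5 and 95.8), Chd7 (8.17 and 92.8), Jakmip1 (6.17 and 90.6) and Gna15 (4.52 and 88.1). Both Eomes elements lay over 100 kb from the gene, whose own start had no peak in either SP list.

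**Figure D2:**
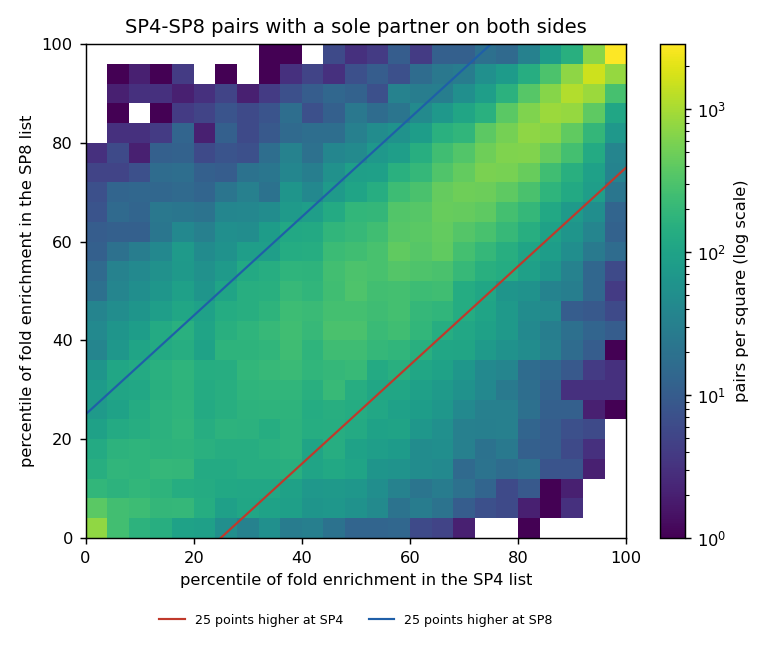
The 76390 pairs of an SP4 and an SP8 peak with a sole partner on both sides, by percentile of fold enrichment in the SP4 list (x axis) and in the SP8 list (y axis), with shade giving the number of pairs per cell and lines the 25-point limits. Most pairs lie near the diagonal, and 8.82% and 5.66% lie beyond the limits on the SP4 and SP8 sides.

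The DN and DP lists were not used to choose SP4-only and SP8-only peaks, so the earlier stages give a separate view of them. Most of the exclusive peaks had no counterpart in one or both earlier lists. A peak at neither DN nor DP was found for 48.3% of SP4-only peaks (47.7 to 48.9) and 42.7% of SP8-only peaks (42.0 to 43.4), against 8.80% of the SP4 peaks shared with SP8. A DN peak without a DP peak was found for 19.9% (19.5 to 20.4) and 23.3% (22.6 to 23.9), peaks at both for 23.0% and 26.1%, and a DP peak without a DN peak for 8.84% and 7.95%. Over all SP4 and all SP8 peaks, a DN peak without a DP peak was found for 12% and 11.9%, peaks at both for 64.0% and 68.3%, and any DP peak for 69.4% and 73.3%. In all, 31.8% of SP4-only (31.3 to 32.3) and 34.1% of SP8-only peaks (33.4 to 34.8) shared sequence with a DP peak. The differences between the sets were small at this level, though the DN share was higher in SP8-only peaks on 19 of 19 autosomes.

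The sets parted with height. Among members above the 50th percentile, 67.3% of SP8-only peaks (64.8 to 69.7) had a DN peak, against 48.3% of SP4-only peaks (46.7 to 49.9). Above the 75th percentile a DN peak without a DP peak was found for 42.2% of the 185 SP8-only peaks and for 21.2% of the 411 SP4-only peaks (17.5 to 25.4), and neither for 17.8% and 43.6% (38.8 to 48.4). Strong SP8-only peaks thus stood more often where DN thymocytes had a peak that DP thymocytes lacked, and strong SP4-only peaks more often where neither had one. On single autosomes, members above the 50th percentile had the higher share of DN peaks without DP peaks at SP8 on 18 of 19, and the higher share with neither at SP4 on 19 of 19. Of the sole-partner pairs, 18.3% of those higher at SP8 had a DN and no DP peak, 13.5% of those higher at SP4, and 9.76% of all. The DN gate holds several cell types, and which of its cells opened these regions was not tested.

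**Figure D3:**
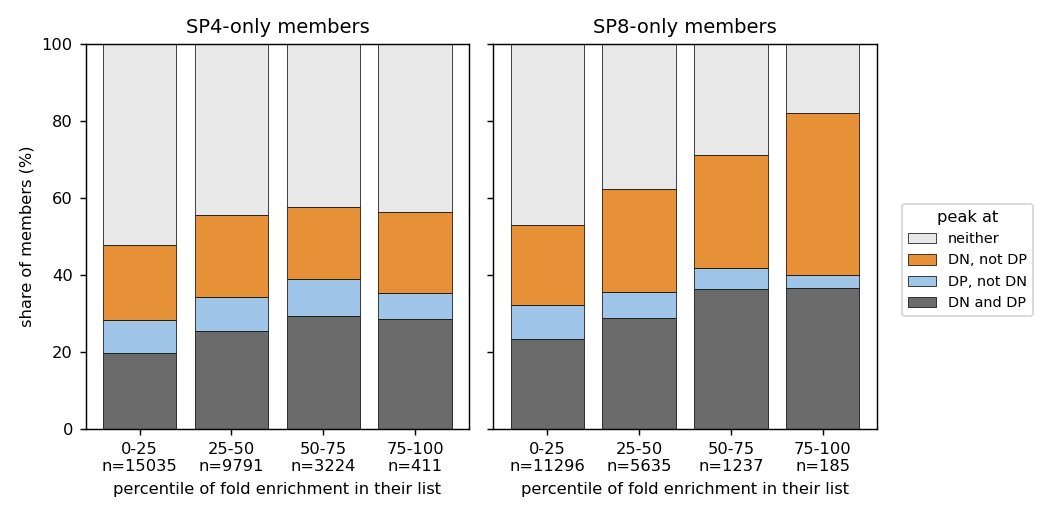
Share in percent of SP4-only (left) and SP8-only (right) peaks that share sequence with a DN and a DP peak, a DP peak, a DN peak or neither, by percentile of fold enrichment (x axis, with n). The orange part, DN without DP, reaches 42.2% in the highest SP8-only peaks and 21.2% in the highest SP4-only peaks.

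Exclusive peaks were poor in promoters, taken as the 200 bp upstream of a transcript start. Promoters were overlapped by 4.53% of SP4-only peaks (4.29 to 4.77) and 6.23% of SP8-only peaks (5.89 to 6.59), against 19.6% of shared SP4 and 19.5% of shared SP8 peaks. Exons outside promoters held 12.4% and 14.7%, introns 44.9% and 44.2%, and intergenic sequence 38.2% and 34.9%. The SP8-only promoter share was the higher on 18 of 19 autosomes, but above the 50th percentile the shares were 3.38% (2.84 to 4.02) and 3.02% (2.25 to 4.05), with the order turned and intervals that overlap. The median distance to the nearest transcript start was 6601 bp in the SP4-only set, 5288 bp in the SP8-only set and 3717 bp among shared SP4 peaks. G and C made up 50.6% ± 6.83 (SD over 28461 peaks) of SP4-only and 53.1% ± 7.42 (SD over 18353 peaks) of SP8-only sequence. The sole-partner pairs higher at SP8 overlapped a promoter in 8.60% and those higher at SP4 in 5.77%, against 18.2% of all such pairs. Over all pairs, split calls included, the SP8 peaks of pairs higher at SP8 overlapped a promoter in 24.7% and the SP4 peaks of pairs higher at SP4 in 14.1%, against 20.8% and 20.2% of the SP8 and SP4 peaks of all pairs, so at SP8 the order against all pairs turned.

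The sequence under the summit differed between the sets, and in percentage points RUNX and ETS letters differed most, though CTCF, EGR and NR4A letters differed more as a ratio. Of 26 motifs searched on both strands in 100 bp windows, 6 (23.1%) had a higher share in SP4-only peaks and 6 (23.1%) in SP8-only peaks with intervals apart. RUNX letters (TGTGGT) stood in 17.9% of SP8-only windows (17.3 to 18.5) and 10.9% of SP4-only windows (10.5 to 11.2), with 14.0% of shared SP4 windows between them. ETS letters (AGGAAGT) ran the other way, in 12.8% of SP4-only (12.5 to 13.2) and 7.09% of SP8-only windows (6.73 to 7.47), with 10.9% in shared SP4 windows. The letters AGATAA, the motif of GATA3, stood in 4.74% (4.50 to 4.99) and 2.94% (2.71 to 3.20), and TCF/LEF letters (CTTTGA), that of TCF7 and LEF1, in 9.87% and 7.60%. Each of these 4 orders held on 19 of 19 autosomes.

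CTCF letters, the motif of the insulator and loop anchor protein, stood in 4.23% of SP8-only and 1.76% of SP4-only windows, and in 4.16% of shared SP4 windows. Over all heights it was thus SP4-only peaks that stood apart from the shared ones. By height the SP8-only shares differed from shared SP8 windows too. They were 3.62% and 2.51% at percentiles 0 to 25, and 5.80% and 5.35% at 25 to 50. At 50 to 75 they were 3.15% and 6.20%, and at 75 to 100 0.541% (1 of 185) and 3.89%. KLF (GGGTGTG, 4.76% and 3.47%), EGR (GTGGGCG, 1.36% and 0.643%), one E-box (CACCTG, 11.1% and 9.93%) and ROR (TAGGTCA, 0.992% and 0.710%) were also higher in SP8-only windows. NR4A (AAAGGTCA, 0.671% and 0.327%), PKNOX (TGACAGNT, 2.65% and 2.01%) and MYB (TAACNG, 10.5% and 9.56%) were higher in SP4-only windows. KLF letters can overlap those of EGR and of T-box proteins, and ROR and NR4A letters share their ending. T-box letters (GGTGTGA), the motif of EOMES and T-bet, stood in 1.93% of SP4-only (1.78 to 2.10) and 2.18% of SP8-only windows (1.98 to 2.40), with intervals that overlap. Since G and C content differed between the sets, windows of 45 to 55% G and C were compared, a choice made after seeing the data. There RUNX stood in 11.1% and 20.9%, ETS in 14.0% and 8.51%, GATA in 4.46% and 3.34% and CTCF in 1.79% and 4.43% of SP4-only and SP8-only windows, while the TCF/LEF shares were 10.1% and 9.13%, with intervals that overlap. Intervals overlapped there also for MYB (10.9% and 10.6%), NR4A (0.672% and 0.421%) and the CACCTG E-box (9.46% and 10.02%). For MYB they overlapped as well in 200 bp windows, above the 50th percentile, and outside promoters and exons. Above the 50th percentile they overlapped too for PKNOX, NR4A, ROR and the CACCTG E-box.

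The RUNX difference grew with height. In the bins of 0 to 25, 25 to 50, 50 to 75 and 75 to 100 on the percentile scale, RUNX letters stood in 15.2%, 20.3%, 28.2% and 42.7% of SP8-only windows, the last being 79 of 185 (35.8 to 49.9). In SP4-only windows the shares were 10.6%, 11.5%, 10.2% and 9.00%, the last being 37 of 411 (6.60 to 12.2). Shared SP8 windows went from 11% to 15.6%, and shared SP4 windows from 12.4% to 15%, so the rise was steepest in SP8-only peaks among the sets compared. GATA letters followed height in SP4-only windows, with 4.04%, 4.67%, 7.38% and 11.2%, and stayed between 2.70% and 3.09% in SP8-only windows. TCF/LEF letters went from 8.77% to 17.0% in SP4-only and from 6.95% to 11.4% in SP8-only windows. ETS letters took the values 9.68%, 15.2%, 19.9% and 16.1% in SP4-only windows and went from 6.08% to 11.9% in SP8-only and from 6.97% to 13.6% in shared SP4 windows, so their share was higher in high peaks of each set. The RUNX order was the same in each class of earlier peaks: SP4-only and SP8-only shares were 11.8% and 16.3% with DN and DP peaks, 6.56% and 11.9% with DP peaks alone, 15.8% and 24.2% with DN peaks alone, and 9.17% and 16.6% with neither. In sole-partner pairs ranked higher at SP4 and at SP8, RUNX stood in 12.8% and 21.8%, ETS in 17.6% and 9.76%, GATA in 5.06% and 2.71%, and CTCF in 1.25% and 5.13%.

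**Figure D4:**
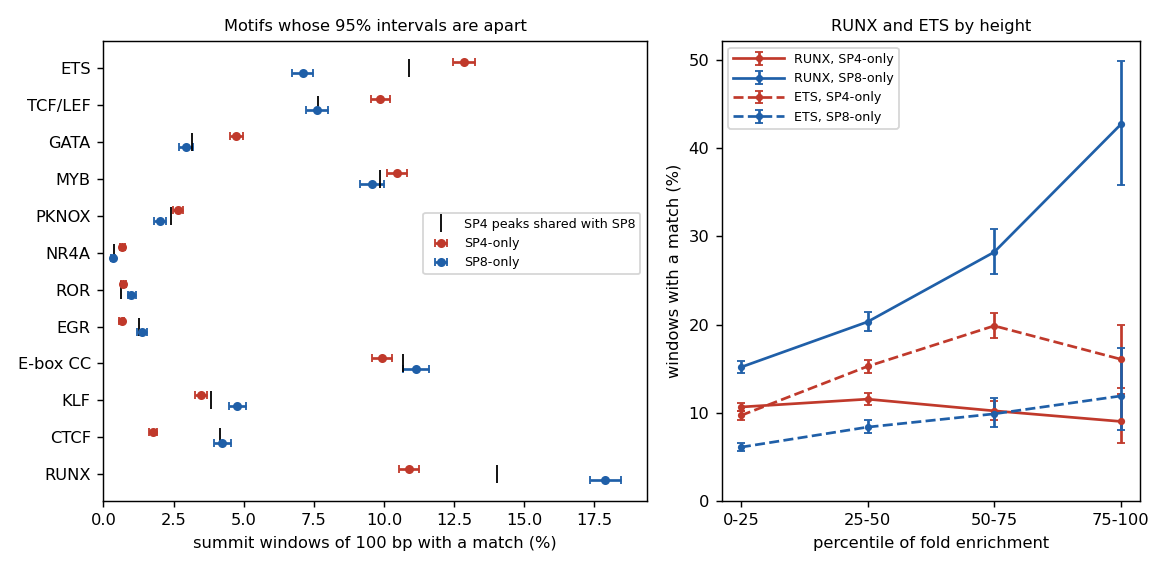
Left, share in percent of 100 bp summit windows with a motif match in SP4-only (red) and SP8-only (blue) peaks, with 95% Wilson intervals, and in shared SP4 peaks (black tick), for the 12 motifs whose intervals are apart; right, RUNX (solid) and ETS (dashed) shares by percentile of fold enrichment. RUNX reaches 42.7% in the highest SP8-only peaks and 9.00% in the highest SP4-only peaks.

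Counted around genes, SP4-only peaks outnumbered SP8-only peaks within 50 kb of 9495 of 20780 protein coding autosomal genes (45.7%), and SP8-only peaks outnumbered SP4-only peaks at 5083 (24.5%), with a median difference of 0 peaks per gene. Among the 18028 genes with a peak of either list in that window, these shares were 52.7% and 28.2%, with a median difference of 1. The median difference, SP4-only minus SP8-only, was 3.5 peaks in the CD4 lineage choice list, 2 in the helper list, -1 in the regulatory T cell list, -1.5 in the CD8 lineage choice list, -1 in the cytotoxic list, 2 in the T cell receptor list and 0 in the maturation list. Against this background, the CD4 lineage choice list had more SP4-only peaks at 8 of 10 genes and more SP8-only peaks at 2, but 4 and 5 with lists of equal length, where the background was 6317 and 7886 genes. Its members were led by Tox (22 SP4-only and 3 SP8-only peaks), Zbtb7b (12 and 3) and Gata3 (10 and 3), the HMG-box and zinc finger factors of CD4 commitment, and by Satb1 (17 and 10), a chromatin organiser. With equal lists these became 12 and 4 at Tox, 12 and 3 at Zbtb7b, 7 and 5 at Gata3 and 10 and 11 at Satb1. At Tox 0 of the 22 SP4-only and 1 of the 3 SP8-only peaks stood above the 50th percentile, the latter at 53.7, and at Gata3 1 of the 10 SP4-only peaks did, at 69.3. Bcl11b, a T cell identity factor, went the other way, with 11 and 20. Shared pairs gave the CD4 lineage choice list the opposite order. At 2 of its genes more pairs were at least 25 points higher at SP4, and at 8 more were higher at SP8. Over all genes these numbers were 6203 and 4813, in the helper list 6 and 4, and in the cytotoxic list 7 and 11.

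The helper list had more SP4-only peaks at 9 of 13 genes and more SP8-only peaks at 2, and 7 and 5 with equal lists. Its genes differed widely, from Rora (24 and 9), of whose peaks 4 SP4-only and 2 SP8-only stood above the 50th percentile, to Icos (7 and 5), Cxcr5 (6 and 4), Maf (2 and 1) and Il5 (1 and 2). Bcl6, the repressor that directs follicular helper cells, had 6 SP4-only and 0 SP8-only peaks, among them the peak at -19380 bp printed above, at percentile 92.5, with a weak DP peak at 16.6 and none at DN. Il21 had 9 and 1, and Il4, the type 2 cytokine, 6 and 1, among them the peak at -36639 bp printed above, at 83.6, with a DN peak at 62.3. That peak lies in an intron of Rad50 and is nearer to Il13 (5 and 1), whose count shares peaks with that of Il4, as the counts of other neighbouring genes do (Klrd1, Klrk1 and Klrc1, or Cd8a and Cd8b1). Among starts called in both lists, Tnfrsf4, which encodes OX40, ranked 86.3 at SP4 and 30.2 at SP8, and Il2 68.9 and 39.1, neither with a DN or DP peak, while Cxcr5 ranked 56.6 and 76.2.

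The cytotoxic list ran toward SP8, with more SP8-only peaks at 16 of 21 genes and more SP4-only peaks at 4, and 19 and 1 with equal lists. Most of these genes differed by few peaks. Ccl5, a chemokine of effector CD8 cells, had 1 SP4-only and 5 SP8-only peaks, 3 of the latter above the 50th percentile and the highest at 83.2. Il2rb, the beta chain of the IL-2 and IL-15 receptors, had 2 and 6, and Slamf7, a receptor of cytotoxic cells, 3 and 6. Xcl1, a chemokine that attracts dendritic cells, had 0 and 3. Fasl, the death ligand, had 1 and 3, among them the peak printed above, at 88.5, with peaks at DN (65.2) and DP (70.8). Zeb2 had 9 and 5, but 6 and 7 with equal lists.

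Peaks on transcript starts were compared for the same lists. Over all genes, 1.55% had a peak on a transcript start at SP4 and not at SP8, and 2.2% the reverse. Of the 137 genes in the lists, 99 had one at both, 30 at neither, 1 at SP4 and not SP8 (Zbtb7b), and 7 at SP8 and not SP4, among them Itgae, Prf1, Gzmb, Ifng, Nkg7 and Klf3. At Prf1, the pore-forming perforin, and Ifng, interferon gamma, the SP8 peaks stood at 97.9 and 97.0 and overlapped SP4 peaks at 88.9 and 74.2 that did not reach the start, so these were differences of extent and level. The Klf3 SP8 peak, at 46.7, overlapped 2 SP4 peaks that did not reach the start, the higher at 46.1, so it differed in extent and hardly in level. At Gzmb (87.2), Nkg7 (81.4) and Itgae (44.8), the CD103 integrin, no SP4 peak overlapped at all. DN peaks stood on the starts of Ifng (99.6), Prf1 (96.3), Gzmb (76.2) and Nkg7 (62.9), and among these Prf1 had a DP peak (98.4). The start of Klrd1, an NK receptor chain, ranked 87.6 at SP4, 97.2 at SP8 and 98.8 at DN, with no DP peak. Other cytotoxic starts went both ways. At SP4 and SP8, Gzma (85.3 and 85.4) and Ctsw (87.9 and 87.9) were close. Fasl (97.0 and 94.7), Ccl5 (62.0 and 53.6), Slamf7 (89.5 and 86.8), Id2 (92.7 and 88.9) and Zeb2 (59.0 and 54.7) ranked higher at SP4. Cst7 (82.2 and 88.6), Tbx21 (60.8 and 65.5) and Il2rb (91.2 and 93.9) ranked higher at SP8.

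The CD8 lineage choice list had more SP8-only peaks at 7 of 10 genes and more SP4-only peaks at 2, and 8 and 2 with equal lists. Besides Runx3, these were led by Stat5b (4 and 9), which carries IL-7 signals, and Itgae (5 and 9), while Runx1 had 24 and 12. Shared pairs gave the CD8 lineage choice list the opposite order. At 7 of its genes more pairs were at least 25 points higher at SP4, and at 1 more were higher at SP8, against 6203 and 4813 over all genes. The regulatory T cell list, genes of a CD4+ lineage that the SP4 gate admits, had more SP8-only peaks at 10 of 13 genes and more SP4-only peaks at 2. Counted within 10 kb it had 5 and 7, so the direction turned with the window. Ikzf2, the Helios gene, stood at 2 and 14, and its highest SP8-only peak, at -31697 bp, ranked 71.4 with no DN or DP peak. Nrp1 had 10 and 3. The starts of Il2ra and Ctla4 ranked 92.2 and 93.4, and 94.7 and 93.2, at SP4 and SP8. Foxp3, on the X chromosome, was not analysed here, since only autosomes were compared.

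**Figure D5:**
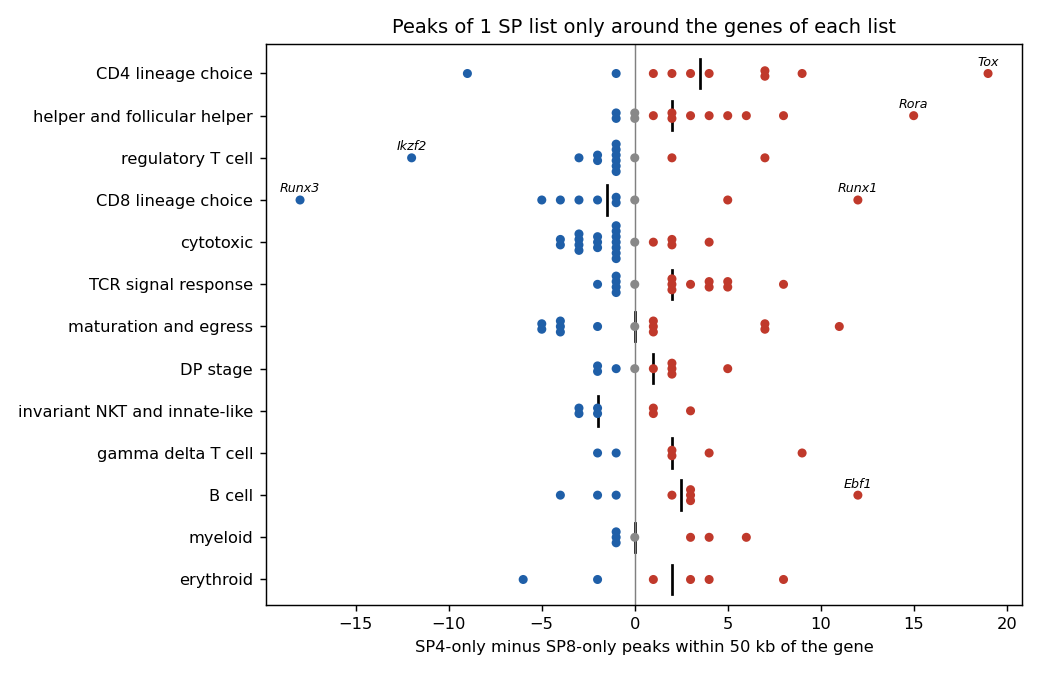
Number of SP4-only minus SP8-only peaks within 50 kb (x axis) for each gene of the 13 lists, 1 dot per gene, red above 0, blue below 0 and grey at 0, with a black tick at the median of the list. Tox stands at 19 and Rora at 15 on the SP4 side, Runx3 at -18 and Ikzf2 at -12 on the SP8 side, and 16 of the 21 cytotoxic genes lie below 0.

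Genes of the T cell receptor signal response had more SP4-only peaks at 9 of 15 and more SP8-only peaks at 5, and 6 and 8 with equal lists. Nfkb1 (11 and 3) and Rel (6 and 1), NF-kappa B subunits, and Egr1 (7 and 2), an immediate early factor, were on the SP4 side, but Nfkb1 was level with equal lists, at 7 and 7. Genes of maturation and egress were even, with 6 and 6 of 13, and 2 and 9 with equal lists. Foxo1 (5 and 10) and Klf2 (2 and 6), which drive the exit programme, were on the SP8 side, and Bach2 (32 and 21) and Bcl2 (22 and 15) on the SP4 side, but these last were level with equal lists, at 25 and 25 and at 16 and 16.

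Markers of cells that the gates could carry gave these values, and their part in the results was not tested. More SP4-only and more SP8-only peaks were found at 5 and 3 of 9 DP stage genes, 3 and 4 of 7 invariant NKT genes, 4 and 2 of 6 gamma delta T cell genes, 5 and 3 of 8 B cell genes, 3 and 3 of 7 myeloid genes and 4 and 2 of 6 erythroid genes. With lists of equal length the order turned in the DP stage list (3 and 5) and the erythroid list (2 and 3), and above the 50th percentile in the invariant NKT list (3 and 2). Single genes went both ways. Ebf1, a B cell factor, had 15 SP4-only and 3 SP8-only peaks, Sox13, a gamma delta T cell factor, 10 and 1 (4 and 1 with equal lists), and Tal1, an erythroid factor, 9 and 1, while Epor, the erythropoietin receptor, had 1 and 7, the B cell adaptor gene Blnk 1 and 5, and Klf1, an erythroid factor, 2 and 4. The start of Zbtb16, the PLZF factor of invariant NKT cells, ranked 4.08 at SP4 and 54.1 at SP8. Some marker starts had no peak in either list, such as those of Ms4a1, Csf1r and Spi1. Others were called in both, with 66.9 and 33.5 at Blnk, 73.1 and 61.2 at Ebf1, 6.53 and 44.9 at Cd79b, 87.0 and 91.5 at Itgam and 70.8 and 86.9 at Cebpa. In a sorted population, fewer cells with an open region and a region less open in each cell cannot be told apart.

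By the number of members assigned to a gene, in its body or else nearest to its start, the largest SP4-only excess was at Vrk1 (56 and 9) and 3110018I06Rik (50 and 17), followed by Tox (38 and 12), Nav2 (30 and 5), Wwox (32 and 8), Zfp608 (31 and 7), Satb1 (46 and 23), Runx1 (41 and 18), Cacna1d (29 and 6) and Cd83 (27 and 5), an activation marker. The largest SP8-only excess was at Runx3 (3 and 26), followed by Cd226 (2 and 20), which encodes the activating receptor DNAM-1, Akap13 (12 and 29), Sel1l (2 and 19), Ikzf2 (3 and 17), Prkch (2 and 16), Abtb2 (5 and 17), Ankrd44 (5 and 17), Foxo1 (10 and 21) and Zfhx3 (9 and 20). Counted within 50 kb, the order turned at Sel1l (5 and 2) and at 3110018I06Rik (2 and 3), and held at the other genes named here. The gene-poor stretch between Vrk1 and Bcl11b, 1.83 Mb long (chr12:106077427-107910402), starts at the end of Vrk1 and holds 3110018I06Rik. In it 105 of 267 SP4 peaks (39.3%) were SP4-only, 20 of them above the 50th percentile, and 33 of 204 SP8 peaks (16.2%) were SP8-only, 2 of them above it. The exclusive peaks of this stretch were thus mostly at SP4, while within 50 kb of Bcl11b itself they were mostly at SP8 (11 and 20).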

How the data were processed

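ATAC-seq libraries from 4 mice per stage (8 of the 16 libraries are SP4 or SP8) were trimmed, aligned to mm10 with BWA, cleared of duplicates with Picard, sampled to the median depth and pooled per stage by the authors, who called peaks with MACS2 at 5% FDR. The tool versions are not given in the sources used here. The lists deposited by the authors give each peak a score, a fold enrichment (a ratio over local background) and a −log10 p-value and q-value. Read depth per sample is not in the lists, and its part in which weak peaks are called was not tested. Peaks were compared on 19 autosomes with Python 3.11.15, pandas 2.3.3, NumPy 2.4.6, SciPy 1.17.1 and pysam 0.24.0, and drawn with matplotlib 3.10.9. Overlap was 1 bp or more, and tied peaks took the lowest percentile of their tie. Promoters were 200 bp upstream of 183128 transcript starts (GENCODE and RefSeq, GRCm38), and the 26 motifs were exact matches in 100 bp windows. Overlap and motif search were tested on simulated data and recovered all 16196 planted peaks and 1300 planted matches. Named items were the genes of 13 lists and, by size, 10 per direction of peaks, promoter peaks, pairs and genes. The members and lists were chosen with earlier results of these data known. The alternatives changed overlap, summit, q-value, list length, promoter, window and flank. A few genes that these rules would name are not reported here.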

Additional observations from a re-analysis of the deposited data

How the results depend on the processing

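Among the alternative values of the main counts and shares, 23 stayed within 1.5 times the reported count or within its interval, and 19 moved, as follows. The former include counts that still changed the order: with lists of equal length 21427 SP4-only and 21577 SP8-only peaks, and 7499 and 8330 pairs higher at SP4 and SP8. With sole-partner pairs, 4325 ranked higher at SP8. The share with a DP peak was 27.3% of SP4-only and 28.6% of SP8-only peaks when the DP summit had to lie inside, 38.6% and 41.6% above the 50th percentile, and 33.9% and 36.8% with lists of equal length. The promoter share was 10.7% and 13.5% with 1000 bp promoters, 2.58% and 3.84% with starts of protein coding transcripts, and 3.38% and 3.02% above the 50th percentile. Motifs higher in SP4-only windows numbered 3 above the 50th percentile and 3 in windows of 45 to 55% G and C. Genes with more SP4-only and more SP8-only peaks numbered 6317 and 7886 with lists of equal length and 4024 and 1610 above the 50th percentile. The excess of genes with more SP4-only over genes with more SP8-only peaks turned to -1 in the CD4 lineage list, -2 in the T cell receptor list, -2 in the DP stage list and -1 in the erythroid list with lists of equal length, to 2 in the regulatory T cell list within 10 kb, and to 1 in the invariant NKT list above the 50th percentile. The cause was not tested, beyond the shorter lists and fewer members that these settings make. Sole-partner pairs as named items and the G and C windows were chosen after seeing the data. No paired analysis was possible because the peak lists pool the 4 mice of a stage, although the labels give SP4 and SP8 libraries of the same mice, and for the same reason no mouse could be left out. Most exclusive peaks were weak, with 3635 SP4-only and 1422 SP8-only peaks above the 50th percentile, and the part of read depth in their calls was not tested.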
